A study of Homo sapiens with 24 samples.

Results

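NFE2L2, which encodes the transcription factor NRF2, was studied together with its inhibitor KEAP1, its small MAF partners MAFF and MAFG and the antioxidant genes HMOX1, NQO1, TXNRD1, SRXN1 and FTH1. The set comprised every probe whose single gene symbol in the platform annotation was one of these 9 genes. A total of 16 probes for 8 of the 9 genes were found among 20046 genes with such a probe, and 13 of the 16 probes, again for 8 genes, passed the detection filter among 24578 probes for 13406 genes. No probe with the symbol FTH1, which encodes the heavy chain of the iron store ferritin, was listed, so FTH1 was not analysed here. The arrays came from 4 established lines of Hodgkin lymphoma, named L-428, KM-H2, SUP-HD1 and L-540. Each line was incubated for 2 h with 10 µM AEZS-136, an inhibitor of PI3K and ERK kinases, or kept as a control for 2 h, and 3 arrays were available for each of the 8 groups. By their later cell death under the drug the study divided them into resistant lines (L-428 and KM-H2) and sensitive lines (SUP-HD1 and L-540). Each class thus rests on 2 lines, and no engineered genetic change is listed for any group. For these 2 h arrays the sources do not say whether replicates stem from different cultures, although the study describes array bars of a later time as independent experiments, so the p-values reflect the variation among these particular samples alone, and that variation may be technical.

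In unstressed cells KEAP1 binds NRF2 and delivers it to degradation, and oxidants or electrophiles that modify KEAP1 cysteines let newly made NRF2 enter the nucleus. There NRF2 pairs with a small MAF protein and binds antioxidant response elements beside genes for glutathione and thioredoxin enzymes, quinone reduction, heme breakdown and iron storage. Much of this control acts on the NRF2 protein, which arrays do not measure, so transcripts of its target genes are a common readout.

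AEZS-136 left most of these transcripts with small differences at 2 h, and which genes were called differed from line to line. On the brightest probes, unequal responses of the lines were detected only for HMOX1 and NFE2L2 (adjusted p of 0.0144 and 0.00362, limma F test). SRXN1, encoding sulfiredoxin, fell in KM-H2, L-428 and L-540 and in the average of the 4 lines. TXNRD1, encoding cytosolic thioredoxin reductase, fell in L-428 and L-540 on 1 of its 2 probes. HMOX1, encoding heme oxygenase 1, rose 2.20-fold in L-428 only among the 4 lines, a call lost in a test on L-428 alone. NFE2L2 and MAFF fell in SUP-HD1, and MAFG rose in L-540 on its brightest probe and in SUP-HD1 on a second probe.

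Levels are log2 normalized intensities after background correction, and a call required a log2 difference of more than 0.4 in size together with an adjusted p below 0.05. Errors beside means are SD over 3 arrays, and errors beside differences are standard errors of the limma model. Adjusted p-values are from limma over all 24578 probes. Intensities of different probes were not compared. Arrays measure RNA of whole cultures, so fewer cells with a transcript and less transcript per cell cannot be told apart. Array medians of the raw signal ran from 96.0 to 127.9, and 16876 to 19524 probes were detected per array at a detection p under 0.05.

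Of 8 markers of Hodgkin Reed-Sternberg cells, 7 were detected on all 3 control arrays in each line. TNFRSF8, the gene of the Hodgkin marker CD30, was detected on all 3 control arrays in L-540, on 1 in L-428 and on 0 in KM-H2 and SUP-HD1, whereas CD40 was detected on 0 in L-540. PAX5, a defining B cell gene, was detected on 0 control arrays of every line, and CD79A on all 3 of every line. Among T and NK cell markers, CD3E, CD5, CD7 and GNLY were detected on 0 control arrays of every line. CD3D was detected on all 3 in KM-H2 and on 0 in L-540, and CD3G on all 3 in KM-H2 only. CD2 was detected on all 3 in KM-H2, L-540 and SUP-HD1, and NKG7 on all 3 in KM-H2, L-428 and L-540.

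**Figure D1:**
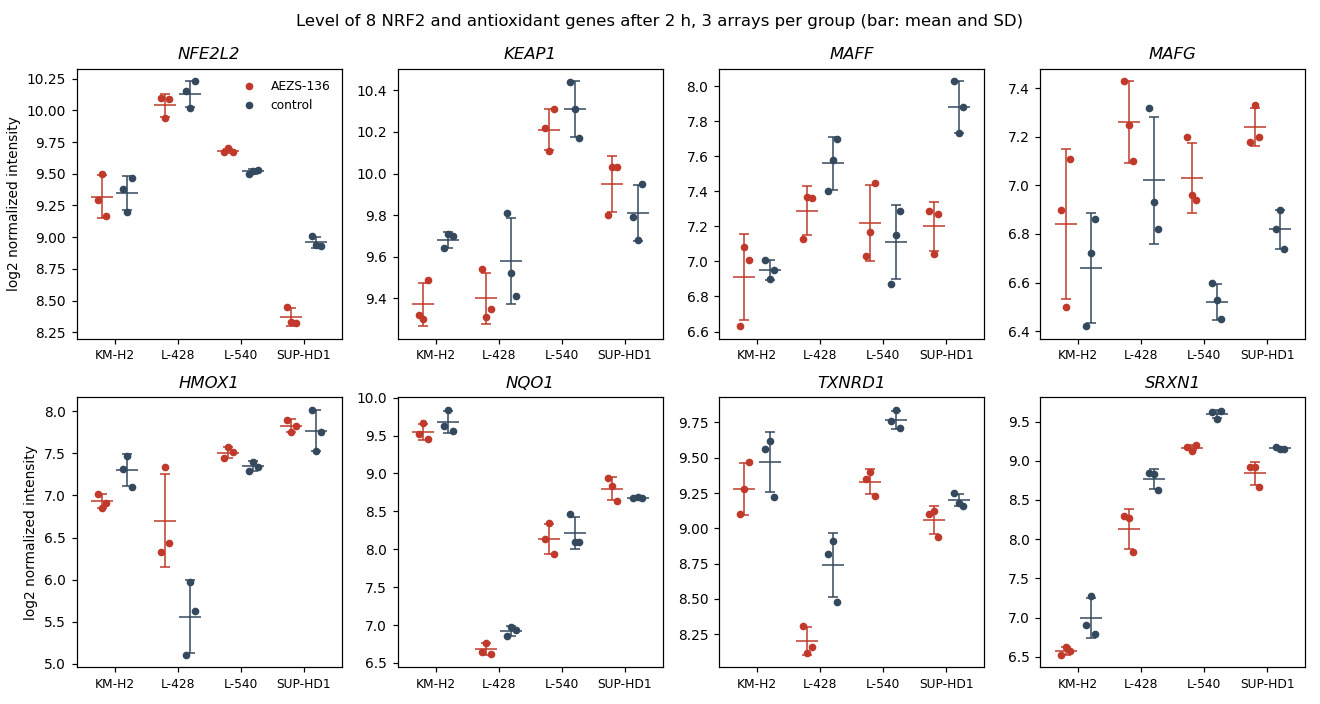
Log2 normalized intensity of 8 genes (1 probe each) in 24 arrays, with AEZS-136 left of control in each line, each panel on its own axis. Points are arrays, bars the mean and SD of 3 arrays. HMOX1 lies higher after AEZS-136 in L-428, SRXN1 lies lower after AEZS-136 in all 4 lines without overlap, and the lines differ more from each other for NQO1 and SRXN1 than treatment moves either gene.

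The first question was how strongly each regulator was expressed in the lines before treatment and after 2 h of AEZS-136. NFE2L2 had control levels of 10.15, 10.02 and 10.23 in L-428, 9.50, 9.52 and 9.53 in L-540, 9.38, 9.20 and 9.47 in KM-H2, and 9.01, 8.94 and 8.93 in SUP-HD1. L-428 stood above every other line, by 1.17 ± 0.0905 over SUP-HD1 (adjusted p = 4.89e-10, limma). L-540 and KM-H2 were not called different (adjusted p = 0.136), although their control arrays did not overlap. KM-H2 exceeded SUP-HD1 by 0.39 ± 0.0905, just under the size limit (adjusted p = 0.000879).

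In SUP-HD1 NFE2L2 measured 8.45, 8.33 and 8.32 after AEZS-136, against 9.01, 8.94 and 8.93 in control cells. All 3 treated arrays lay below all 3 control arrays. The difference was -0.59 ± 0.0905 (adjusted p = 0.000182), a 1.51-fold fall. In the other lines NFE2L2 differed by -0.03 in KM-H2, -0.09 in L-428 and 0.16 in L-540, with no call, and the 4 responses were unequal beyond their spread (adjusted p = 0.00362, limma F test chosen after seeing the data). At an adjusted p under 0.05, 7.62% of all probes had unequal responses over the 4 lines. The SUP-HD1 call did not depend on any single array of that line: the difference stayed between -0.64 and -0.57 with each left out. Median scaling in place of quantile normalization gave -0.46 (adjusted p = 0.271), and the call was lost.

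KEAP1, the adaptor that targets NRF2 for ubiquitination, had its highest control level in L-540 with 10.44, 10.31 and 10.17 on its brightest probe, followed by SUP-HD1 with 9.79, 9.68 and 9.95. L-540 exceeded SUP-HD1 by 0.50 ± 0.111 (adjusted p = 0.000688). The other 3 lines were not called different from each other, and 3 of 6 differences between lines were called.

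No KEAP1 probe was called after AEZS-136 in any line. In KM-H2 the brightest probe measured 9.32, 9.30 and 9.49 after AEZS-136, against 9.64, 9.71 and 9.70 in control cells. These groups did not overlap, and the difference was -0.31 ± 0.111 (adjusted p = 0.0686). A second probe gave -0.33 ± 0.0958 (adjusted p = 0.0226), under the size limit. The third probe was detected on 0 arrays.

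MAFF, a small MAF that lacks a transactivation domain, had its highest control level in SUP-HD1 with 8.03, 7.73 and 7.88. L-428 followed with 7.40, 7.58 and 7.70, L-540 with 6.87, 7.15 and 7.29, and KM-H2 with 7.01, 6.90 and 6.95. SUP-HD1 and L-428 were not called different (-0.32 for L-428 minus SUP-HD1, adjusted p = 0.0646), nor were L-540 and KM-H2 (adjusted p = 0.393), whereas L-428 exceeded L-540 by 0.45 ± 0.139 (adjusted p = 0.00949).

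After AEZS-136 MAFF in SUP-HD1 measured 7.29, 7.04 and 7.27, against 8.03, 7.73 and 7.88 in control cells. The groups did not overlap. MAFF fell by 0.68 on the log2 scale, with a standard error of 0.139 (adjusted p = 0.00316). The call remained with each of the 6 SUP-HD1 arrays left out in turn, and the difference ranged from -0.76 to -0.60. Median scaling gave -0.53 (adjusted p = 0.215). MAFF differed by -0.05 in KM-H2, -0.27 in L-428 and 0.11 in L-540, and inequality of the 4 responses just missed the threshold (adjusted p = 0.0524). Of the other 2 MAFF probes, 1 was detected on 0 arrays and 1 was left out by the detection filter.

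MAFG, a second small MAF, had the smallest range of control means among the brightest probes of the 8 genes. Its control levels were 7.32, 6.93 and 6.82 in L-428, 6.82, 6.90 and 6.74 in SUP-HD1, 6.42, 6.72 and 6.86 in KM-H2, and 6.60, 6.53 and 6.45 in L-540. Neighbours in this order did not differ beyond their spread (adjusted p of 0.292, 0.415 and 0.466), and on this brightest probe only L-428 against L-540 was called (0.50 ± 0.149, adjusted p = 0.00792). A second probe gave 0.35 there with no call (adjusted p = 0.0895), and called KM-H2 minus L-428 instead (-0.46 ± 0.164, adjusted p = 0.0246), for which the brightest probe gave -0.36 (adjusted p = 0.0506). On the brightest probe the call was lost without L-428 control replicate 1, and 2 differences were called without L-428 control replicate 3 or KM-H2 control replicate 3.

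In L-540 MAFG measured 7.20, 6.96 and 6.94 after AEZS-136, against 6.60, 6.53 and 6.45 in control cells. Treated and control arrays did not overlap. The difference was 0.51 ± 0.149 (adjusted p = 0.0305), and on a second probe it was 0.43 ± 0.164 (adjusted p = 0.103). The L-540 call was lost without control replicate 2 (0.51), control replicate 3 (0.47), AEZS-136 replicate 1 (0.42) or AEZS-136 replicate 2 (0.54).

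In SUP-HD1 the second MAFG probe measured 6.50, 6.89 and 6.46 after AEZS-136, against 6.02, 5.76 and 6.20 in control cells. The groups did not overlap. It rose by 0.62 ± 0.164 (adjusted p = 0.0198), whereas the brightest probe differed by 0.42 ± 0.149 (adjusted p = 0.0917). Over the 4 lines, the brightest probe averaged 0.33 ± 0.0744 (adjusted p = 0.00188), below the size limit, and the second averaged 0.40 ± 0.0822 (adjusted p = 0.000896) and was called. Both probes were positive in all 4 lines, and inequality of the 4 responses was detected on neither (adjusted p of 0.633 and 0.647, limma F test). The third probe was detected on 3 arrays, had no call and averaged -0.06.

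**Figure D2:**
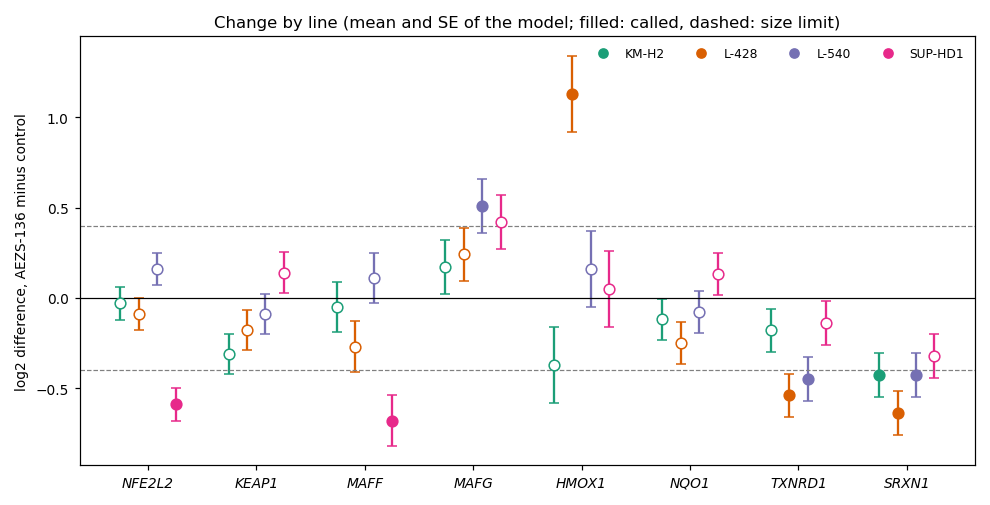
Log2 difference, AEZS-136 minus control, of 8 genes in 4 lines, as mean and SE of the model. Filled points were called, and dashed lines mark the size limit of 0.4. SRXN1 lies below 0 in all 4 lines, HMOX1 above the limit in L-428 only, and NFE2L2 and MAFF below the limit in SUP-HD1 only.

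Among the target genes, HMOX1 breaks heme down to biliverdin, carbon monoxide and iron, and is among the most inducible NRF2 targets. It was lowest in L-428, with control levels of 5.10, 5.97 and 5.62. SUP-HD1 had 8.02, 7.53 and 7.76, L-540 7.29, 7.40 and 7.34, and KM-H2 7.32, 7.47 and 7.10. The last 3 lines named were not called different from each other, although 5 of 6 differences in place of 3 were called without L-428 AEZS-136 replicate 2, while L-428 minus L-540 was -1.78 ± 0.211 (adjusted p = 3.25e-07) and L-428 minus SUP-HD1 was -2.21 ± 0.211 (adjusted p = 1.38e-08).

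L-428 was also the line in which HMOX1 responded. It measured 6.33, 7.34 and 6.43 after AEZS-136, against 5.10, 5.97 and 5.62 in control cells. The groups did not overlap, although the arrays within each group were widely spread, with SD of 0.553 and 0.437. HMOX1 rose by 1.13 ± 0.211 (adjusted p = 0.00121), and the probe was detected on all 6 arrays. With single L-428 arrays left out the difference ran from 0.82 (without AEZS-136 replicate 2) to 1.34 (without control replicate 2), and the call was kept in all 6 fits. An order of the 24 arrays was inferred from the misplaced columns of the intensity table and divided into 2 sets of 12 arrays, although no label names such sets. The HMOX1 difference was 1.72 in the first set, which held 1 AEZS-136 and 1 control array of L-428, and 0.84 in the second, which held 2 of each. With the authors' values it was 0.47, and without background correction 0.50, both called. A test on L-428 alone, with only the spread of this line, lost the call (adjusted p = 0.103), as did the test of the study's methods (adjusted p = 0.292).

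In KM-H2 HMOX1 measured 7.02, 6.85 and 6.91 after AEZS-136, against 7.32, 7.47 and 7.10 in control cells. The treated arrays lay below the control arrays, with a difference of -0.37 ± 0.211 (adjusted p = 0.299). HMOX1 differed by 0.16 in L-540 and 0.05 in SUP-HD1. Its 4 responses were unequal in the limma F test (adjusted p = 0.0144). That test pools the spread of all 8 groups, and L-428, with the widest spread, was not called when tested alone. The average of the lines was 0.25 ± 0.105 (adjusted p = 0.101). After treatment the L-428 mean, 6.70 ± 0.553 (SD, n = 3), was still below the means of 6.93 in KM-H2, 7.51 in L-540 and 7.83 in SUP-HD1.

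NQO1, a quinone reductase and a classical NRF2 target, separated all 4 lines. Its control levels were 9.63, 9.84 and 9.56 in KM-H2, 8.67, 8.69 and 8.68 in SUP-HD1, 8.46, 8.10 and 8.09 in L-540, and 6.86, 6.98 and 6.94 in L-428. All 6 differences between lines were called, and KM-H2 exceeded L-428 by 2.75 ± 0.116, or 6.75-fold (adjusted p = 1.68e-14). Each neighbour in the order differed from the next, by 1.0 (KM-H2 minus SUP-HD1), -0.46 (L-540 minus SUP-HD1) and -1.30 (L-428 minus L-540). The order did not follow the study's classes, since the highest and the lowest line were both classed as resistant.

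AEZS-136 did not change NQO1 beyond the threshold in any line, with differences of -0.12 ± 0.116 in KM-H2, -0.25 ± 0.116 in L-428, -0.08 ± 0.116 in L-540 and 0.13 ± 0.116 in SUP-HD1. In L-428 the values were 6.65, 6.76 and 6.62 after AEZS-136, against 6.86, 6.98 and 6.94 in control cells. These groups did not overlap, but the adjusted p was 0.233. A second NQO1 probe was detected on 3 arrays, all of AEZS-136-treated KM-H2, where it measured 5.03, 5.12 and 4.96 after AEZS-136, against 4.70, 4.65 and 4.77 in control cells, in which no array detected it. It passed the detection filter through these 3 arrays alone, so no test is given.

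TXNRD1 reduces thioredoxin with NADPH. On its brightest probe the control levels were 9.76, 9.84 and 9.71 in L-540, 9.56, 9.62 and 9.22 in KM-H2, 9.25, 9.18 and 9.16 in SUP-HD1, and 8.82, 8.91 and 8.48 in L-428. L-428 minus SUP-HD1 was -0.46 ± 0.120 (adjusted p = 0.0028). Neighbours higher in the order were not called different, although KM-H2 minus L-540 was -0.31 with an adjusted p of 0.0355.

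In L-428 the brightest TXNRD1 probe measured 8.31, 8.12 and 8.16 after AEZS-136, against 8.82, 8.91 and 8.48 in control cells. In L-540 it measured 9.35, 9.40 and 9.23 after AEZS-136, against 9.76, 9.84 and 9.71 in control cells. In neither line did treated and control arrays overlap. The falls were 0.54 and 0.45 on the log2 scale, as differences of -0.54 ± 0.120 in L-428 (adjusted p = 0.00536) and -0.45 ± 0.120 in L-540 (adjusted p = 0.0171). KM-H2 gave -0.18 and SUP-HD1 -0.14, with no call, and the average of the lines was -0.33 ± 0.0598 (adjusted p = 0.000276), under the size limit. Inequality of these responses was not detected (adjusted p = 0.284, limma F test).

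The second TXNRD1 probe, annotated to another transcript accession, was called in no line. It differed by 0.09 ± 0.122 in KM-H2, -0.28 ± 0.122 in L-428 (adjusted p = 0.197), -0.06 ± 0.122 in L-540 (adjusted p = 0.847) and -0.01 ± 0.122 in SUP-HD1. In L-540 it measured 8.83, 8.73 and 8.96 after AEZS-136, against 8.77, 8.92 and 9.02 in control cells, and these groups overlapped. The difference between the probes was not tested. The L-540 call on the brightest probe was lost without control replicate 2 (-0.41) or AEZS-136 replicate 3 (-0.40).

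**Figure D3:**
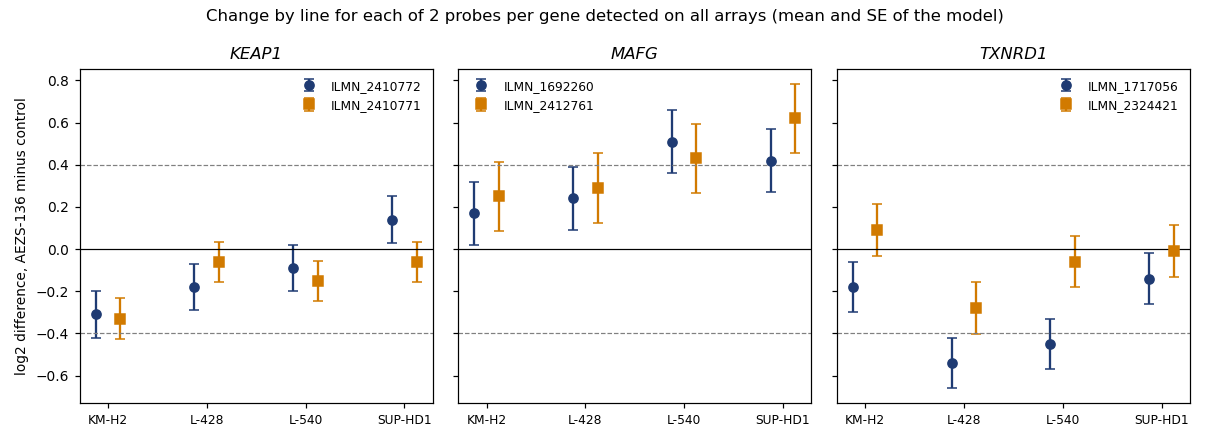
Log2 difference, AEZS-136 minus control, in 4 lines for each of 2 probes of KEAP1, MAFG and TXNRD1, as mean and SE of the model, with dashed lines at the size limit of 0.4. The MAFG probes lie above 0 in every line, at 0.42 and 0.62 in SUP-HD1, and the TXNRD1 probes lie at -0.45 and -0.06 in L-540, at -0.54 and -0.28 in L-428 and at -0.18 and 0.09 in KM-H2.

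SRXN1 reduces overoxidised peroxiredoxins with ATP. It varied widely between control lines, with 9.62, 9.54 and 9.63 in L-540, 9.18, 9.15 and 9.15 in SUP-HD1, 8.85, 8.83 and 8.63 in L-428, and 6.91, 7.28 and 6.79 in KM-H2. KM-H2 minus L-540 was -2.60 ± 0.122 (6.08-fold, adjusted p = 7.94e-14), and KM-H2 minus L-428 was -1.78 ± 0.122 (adjusted p = 6.07e-11). SUP-HD1 and L-428 were not called different, at -0.39 for L-428 minus SUP-HD1 (adjusted p = 0.012), because the size limit was missed. KM-H2 thus held the highest NQO1 and the lowest SRXN1 level among control lines.

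In L-428 SRXN1 measured 8.30, 8.27 and 7.84 after AEZS-136, against 8.85, 8.83 and 8.63 in control cells. In L-540 it measured 9.18, 9.13 and 9.20 after AEZS-136, against 9.62, 9.54 and 9.63 in control cells. The SD within each of these groups was at most 0.256. In KM-H2 it measured 6.52, 6.62 and 6.57 after AEZS-136, against 6.91, 7.28 and 6.79 in control cells. In SUP-HD1 it measured 8.92, 8.92 and 8.67 after AEZS-136, against 9.18, 9.15 and 9.15 in control cells. Every treated array lay below every control array of its line.

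SRXN1 fell by 0.64 in L-428 (SE 0.122, adjusted p = 0.00155), by 0.43 in L-540 (adjusted p = 0.0256) and by 0.43 in KM-H2 (adjusted p = 0.021). In SUP-HD1 the difference was -0.32 ± 0.122 (adjusted p = 0.119), with no call. Inequality of the 4 responses was not detected (adjusted p = 0.606), and the average of the lines was -0.45 ± 0.0611 (adjusted p = 8.45e-06). With any of the 24 arrays left out, the average ran from -0.48 to -0.42 and was called each time. The L-428 call was kept in all 6 fits with an L-428 array left out.

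The KM-H2 and L-540 calls of SRXN1 were near the limits. In KM-H2 the call was lost without control replicate 2 (-0.28), AEZS-136 replicate 1 (-0.40) or AEZS-136 replicate 3 (-0.43). In L-540 it was kept only without control replicate 2 (-0.46), and otherwise lay between -0.44 and -0.41 without a call. On values without background correction, and on the authors' values, the average of the lines was -0.35 and -0.34 with adjusted p of 5.99e-08 and 4.91e-08, so that the size limit and not the p ended the call. The same held with median scaling (-0.37, adjusted p = 0.00299), and the call was also lost with the first inferred set alone (-0.37).

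SRXN1 and TXNRD1 were the members that fell in more than 1 line, and their promoter windows are shown because NRF2 acts through antioxidant response elements. Sequences were taken from RefSeq (GRCh38.p14) and run from 250 bases before to 50 bases after an annotated transcript start, 5′ to 3′. Windows were found for 7 of the 9 genes, 11 windows in all, with none for HMOX1 and FTH1. A total of 3 motifs were searched on both strands, the antioxidant response element core TGACNNNGC, the AP-1 site TGANTCA and the cAMP response element TGACGTCA. The motifs share their first bases, so a stretch can match more than 1 of them. Capitals mark matches to the element core.
SRXN1, chr20:653151-653450, minus strand: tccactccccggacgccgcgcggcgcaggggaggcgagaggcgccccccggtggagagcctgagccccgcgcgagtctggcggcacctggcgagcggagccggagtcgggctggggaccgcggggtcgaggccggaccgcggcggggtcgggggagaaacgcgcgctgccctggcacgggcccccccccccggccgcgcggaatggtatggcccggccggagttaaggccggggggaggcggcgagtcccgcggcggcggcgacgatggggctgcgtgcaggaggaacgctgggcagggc
TXNRD1 first window, chr12:104215529-104215828, plus strand: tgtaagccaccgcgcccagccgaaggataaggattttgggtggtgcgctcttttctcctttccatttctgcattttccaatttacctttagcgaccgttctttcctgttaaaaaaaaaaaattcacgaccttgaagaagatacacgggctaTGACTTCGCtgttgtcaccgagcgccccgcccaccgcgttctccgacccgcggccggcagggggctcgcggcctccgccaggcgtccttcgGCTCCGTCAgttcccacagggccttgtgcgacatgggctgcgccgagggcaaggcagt
TXNRD1 second window, chr12:104286782-104287081, plus strand: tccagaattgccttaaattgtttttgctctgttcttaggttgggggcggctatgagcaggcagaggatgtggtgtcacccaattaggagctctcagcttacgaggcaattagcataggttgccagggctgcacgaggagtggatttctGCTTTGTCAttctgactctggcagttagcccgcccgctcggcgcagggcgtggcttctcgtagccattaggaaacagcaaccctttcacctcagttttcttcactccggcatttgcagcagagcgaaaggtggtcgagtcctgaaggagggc

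The SRXN1 window held no match to any of the 3 motifs. The first TXNRD1 window held 2 element cores, the first bases of which lay at -99 and -8 from the start, and the second window held 1 at -102. Of the 11 windows of the set, 4 held an element core, in 3 genes (KEAP1, MAFF and TXNRD1), against 13.3% of 35116 windows of all genes. The AP-1 site was in 0 of the 11 windows and in 7.71% of all windows, and the cAMP response element was in 1 window, of MAFF at -54, and in 1.85% of all windows. A match describes the letters in these windows only.

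Read by line, the number of genes called is given beside the share of all probes called, without a test between them. The brightest probes of the 8 genes were detected on all arrays, unlike many other probes. Of 12101 probes detected on all arrays, 1941 were called in KM-H2, 1270 in L-428, 1450 in L-540 and 1236 in SUP-HD1, when only these were fitted. In KM-H2 1 of 8 genes was called (SRXN1), where 11.2% of all probes were called. In L-428 3 of 8 were called (HMOX1 up, SRXN1 and TXNRD1 down), with 7.27% of all probes, and in L-540 3 of 8 (MAFG up, SRXN1 and TXNRD1 down), with 9.06% of all probes. In SUP-HD1 2 of 8 were called (NFE2L2 and MAFF, both down), with 6.54% of all probes. In the average of the lines 1 of 8 was called (SRXN1), with 6.69% of all probes. An adjusted p under 0.05 in that average was found for 5 of 8 genes and for 6140 of all 24578 probes. The median log2 difference over the 8 genes was -0.15 in KM-H2, -0.21 in L-428, 0.02 in L-540 and -0.04 in SUP-HD1, and that over all probes lay within 0.0118 of 0 in each line.

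Within the first and the second of the inferred sets each group of a line had only 1 or 2 arrays, so the differences are given without a test. They were -0.55 and -0.65 for NFE2L2 and -0.45 and -0.92 for MAFF in SUP-HD1, and 0.50 and 0.63 for MAFG in L-540. SRXN1 gave -0.36 and -0.78 in L-428, -0.47 and -0.40 in L-540, and -0.31 and -0.66 in KM-H2, and TXNRD1 gave -0.36 and -0.63 in L-428 and -0.40 and -0.45 in L-540. With all 24 arrays and a term for the set in the model, all 10 calls, in the lines and in their average, remained.

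The next question was whether resistant and sensitive lines responded differently. Subtracting the mean response of the sensitive pair of lines from that of the resistant pair gave a call by limma for 0 of 8 genes, where 2.1% of all probes were called, and 1 gene, KEAP1, had an unadjusted p under 0.05. KEAP1 differed by -0.27 ± 0.111 on its brightest probe (adjusted p = 0.241) and by -0.09 ± 0.0958 on a second probe (adjusted p = 0.736). HMOX1, whose rise occurred in 1 resistant line, differed by 0.27 ± 0.211 (adjusted p = 0.589).

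Between control lines 30 of 48 differences of the 8 genes (62.5%) were called. KM-H2 differed from L-428 in 6 of 8 genes (46.2% of all probes), from L-540 in 3 (48.6%) and from SUP-HD1 in 3 (49.6%). L-428 differed from L-540 in 8 of 8 (44.5% of all probes) and from SUP-HD1 in 4 (42.9%), and L-540 from SUP-HD1 in 6 (46.6%). These comparisons share control arrays.

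Genes with a profile like that of 2 members over the 8 group means were listed by Pearson correlation, as a description. NQO1, with the widest range of control levels, was followed most closely by CSRP1 (0.997), HSP90B1 (0.988) and TRIM3 (0.987). SRXN1, with the largest average change, was followed by TM9SF2 (0.998), the pseudogene BRD7P3 (0.994) and ARL6IP5 (0.992). The 8 points share lines and arrays, and most of the range in both genes lies between lines.

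Around these genes, 11 of 15 listed partners and regulators of NRF2 were measured. NFE2L1, encoding a related factor best known for inducing proteasome genes, was called in 3 lines and in the average. In SUP-HD1 it measured 9.70, 9.66 and 9.64 after AEZS-136, against 9.12, 8.90 and 9.04 in control cells, and the groups did not overlap. NFE2L1 rose by 0.65 ± 0.0862 in SUP-HD1, 0.46 in L-428 and 0.44 in KM-H2, with 0.33 in L-540 (adjusted p = 0.0159, under the size limit) and 0.47 ± 0.0431 in the average (adjusted p = 4.89e-08). Single falls were called for NFE2L3 in L-540 (-0.52), the nuclear receptor RXRA in L-428 (-0.44) and the kinase gene GSK3B in KM-H2 (-0.56).

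Of 44 other listed NRF2 targets, 28 were measured, and 0 were called in the average of the lines by limma. There 6 had an unadjusted p under 0.05, and 4 had an adjusted p under 0.05 but lay within the size limit. Of all 24578 probes, 6.69% were called in that average and 6140 had an adjusted p under 0.05. Rises were called for GCLC, the catalytic subunit of the first enzyme of glutathione synthesis, in KM-H2 (0.48 ± 0.141), for the epoxide hydrolase gene EPHX1 in L-428 (0.91 ± 0.177, adjusted p = 0.00176) and for ABHD4 in SUP-HD1 (0.70 ± 0.205). A fall was called for the heme transporter SLC48A1 in KM-H2 (-0.63 ± 0.157), where a second SLC48A1 probe gave -0.3. Another was called for the dehydrogenase gene IDH1 in L-540 (-0.52 ± 0.0933), where a second IDH1 probe gave -0.03. EPHX1 in L-428 measured 6.44, 6.39 and 6.56 after AEZS-136, against 5.56, 5.79 and 5.30 in control cells. In that line HMOX1 and EPHX1 were called up, while the NRF2 targets SRXN1 and TXNRD1 were called down (-0.64 and -0.54). The median log2 difference over the 28 measured targets was 0.0 there, and 996 of all 24578 probes were called up.

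Of 29 general antioxidant genes, 25 were measured. GLRX, encoding glutaredoxin, fell in 3 lines and in the average. In KM-H2 it measured 8.07, 8.0 and 8.02 after AEZS-136, against 8.62, 8.85 and 8.80 in control cells, without overlap. The differences were -0.73 ± 0.0835 in KM-H2, -0.60 in L-540, -0.84 in SUP-HD1, -0.37 in L-428 (adjusted p = 0.00631, under the size limit) and -0.63 ± 0.0417 in the average (adjusted p = 3.97e-10). The stress-induced sestrin gene SESN2 was the one called rise in the average (1.40 ± 0.117, adjusted p = 1.27e-08). It rose by 0.83 in KM-H2, 1.66 in L-428, 1.5 in L-540 and 1.63 in SUP-HD1, with 3 of 3 AEZS-136 arrays detecting it in every line, against 1 control array in KM-H2, 3 in L-428, 2 in L-540 and 1 in SUP-HD1. Single-line falls were called for SESN1 in KM-H2 (-0.41), OXR1 in SUP-HD1 (-0.83) and TXNIP in SUP-HD1 (-1.23), with a rise of TXNIP in L-428 (0.49). Of 15 heme and iron genes, 10 were measured, and STEAP3, an iron reductase, was the only call in a single line, at -0.42 ± 0.112 in L-540. In the average of the lines the median log2 difference was -0.09 over the NRF2 partners, -0.02 over the other NRF2 targets, -0.01 over the general antioxidant genes and -0.17 over the heme and iron genes, beside -0.011 over all probes.

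Markers of other cell types moved with treatment in some lines. Of 4 measured T and NK cell markers, CD3D and CD3G fell in KM-H2 (both -0.54) and CD2 in L-540 (-1.13). Normalized intensities were summed over all 4 measured markers, which include NKG7. The sums were 604 to 622 after AEZS-136 against 785 to 912 in control KM-H2 cells, and 3310 to 3869 against 4021 to 4610 in L-540. They were 152 to 185 against 190 to 231 in SUP-HD1, and 107 to 133 against 110 to 125 in L-428. Of 6 myeloid markers, CD14 fell in KM-H2 (-1.10) and CD68 in SUP-HD1 (-0.42, with 0.01 and -0.09 on 2 other CD68 probes). Myeloid sums were 1603 to 1750 after AEZS-136 against 1772 to 1966 in control KM-H2 cells, 736 to 770 against 756 to 797 in L-428, 674 to 740 against 743 to 776 in L-540, and 662 to 721 against 783 to 817 in SUP-HD1. The defining myeloid genes LYZ and FCGR1A were detected on 0 control arrays of every line, whereas CD68 was detected on all 3 of every line. CSF1R was detected on all 3 control arrays in KM-H2, L-540 and SUP-HD1, ITGAM in KM-H2 and L-428, and CD14 in KM-H2. MPO and S100A8 were detected on all 3 in no line.

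Of 2 measured stromal or epithelial markers, COL1A1 and VIM, COL1A1 rose in KM-H2 (0.51). The listed COL1A2, COL3A1, DCN, EPCAM, KRT8 and KRT18 were detected on 0 control arrays of every line. By limma, 0 of 6 B cell and 0 of 3 erythroid markers were called in any line. Per line, 1 or 2 B cell markers and 0 erythroid markers had an unadjusted p under 0.05. Of the 8 Hodgkin markers, GATA3 fell in KM-H2 (-0.76) and rose in L-428 (0.46) and SUP-HD1 (0.67), FUT4 fell in L-540 (-0.78) and TRAF1 rose in SUP-HD1 (0.42). The part of these markers in the member changes was not tested.

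**Figure D4:**
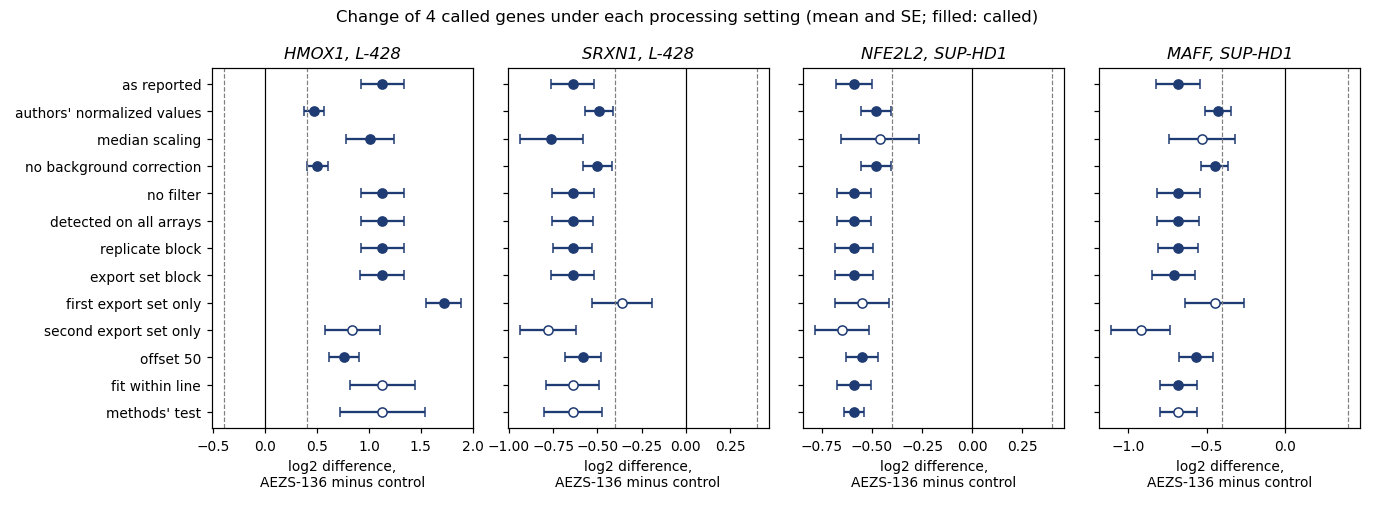
Log2 difference, AEZS-136 minus control, of HMOX1 and SRXN1 in L-428 and of NFE2L2 and MAFF in SUP-HD1 under 13 settings, as mean and SE, with filled points called and dashed lines at the size limit of 0.4. Every point lies on the same side of 0 as reported, and open points, where the call was lost, occur with single export sets (1 or 2 arrays per group), the methods' test, fits within L-428 and, for the SUP-HD1 genes, median scaling.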

How the data were processed

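RNA of 24 samples was hybridised to Illumina HT-12 arrays, 3 per line and treatment. The authors deposited a table of non-normalized probe intensities with a detection value per probe, as exported from BeadStudio (its complement was used as the detection p), and a table of normalized log2 values of the same arrays, whose background handling is not given in the sources used here. In 3270 of 47323 probes the columns of the intensity table were out of register and were not used, none of them a probe of the 9 genes. With limma (version 3.58.1, R 4.3.3), intensities were background-corrected with neqc (normexp, offset 16), quantile-normalized and taken to log2. The 24578 probes detected (detection p below 0.05) by 3 or more arrays entered the model. Gene names came from the platform annotation, in which 30113 probes had 1 symbol, 8 had several and were not named, and 17202 had none.

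A model with 8 group means was fitted with lmFit and eBayes, with Benjamini-Hochberg adjustment over all kept probes and the size limit of 0.4 taken from the study's methods. Each gene was counted by its brightest kept probe. The script was tested on simulated data. The number of arrays limits the precision. Replicate numbers were not used to pair the arrays. Deviations of same-numbered arrays within a line correlated between -0.178 and 0.096, and those of differently numbered arrays between -0.134 and 0.169. In KM-H2 only, every same-numbered value exceeded every other value. With 3 arrays per group this check cannot exclude pairing. Within the lists, genes called in the average of the lines and up to 5 with the largest called change in a line were named. The genes and lists were chosen with earlier results of these data known. Alternatives were the authors' values, median scaling, no background correction, offset 50, other detection filters, no size limit, a replicate block, the inferred set of 12 arrays (export set) as a block or alone, fits within a line, the test of the study's methods (probe by probe, without moderation), and leaving out each array.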

Additional observations from a re-analysis of the deposited data

Results flagged for a closer look

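HMOX1 was singled out because its response differed between lines, with an adjusted p of 0.0144 for equal responses (limma F test, chosen after seeing the data). Its log2 differences, AEZS-136 minus control, were -0.37 in KM-H2, 1.13 in L-428, 0.16 in L-540 and 0.05 in SUP-HD1. The F test pools the spread of all 8 groups, and a test on L-428 alone lost the HMOX1 call. NFE2L2 was singled out by the same test (adjusted p = 0.00362), with -0.03 in KM-H2, -0.09 in L-428, 0.16 in L-540 and -0.59 in SUP-HD1.

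Of the wider antioxidant genes, TXNIP, encoding an inhibitor of thioredoxin, differed between resistant and sensitive lines by 0.90 ± 0.109 (adjusted p = 7.5e-05, limma). Its probe was detected on 0 arrays of KM-H2 and L-540, so the value rests on L-428 and SUP-HD1, where TXNIP differed by 0.49 and -1.23. OXR1, a gene of oxidation resistance, differed by 0.53 ± 0.121 (adjusted p = 0.0223), with 0.27 in KM-H2, -0.17 in L-428, -0.13 in L-540 and -0.83 in SUP-HD1.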

How the results depend on the processing

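The export sets were inferred and hold 1 or 2 arrays per group, so these fits use fewer samples and assume that a lone array varies like the other groups. Of 206 alternative values for single called differences of the 8 genes, 61 lost the call and 0 changed sign. The number of genes called was 0 in place of 1 in KM-H2 with the authors' values, median scaling, no background correction, either export set alone, offset 50, the methods' test and a fit within the line. In L-428 it was 1 and 0 in place of 3 with the first and second export set, and 0 with the methods' test and the fit within the line. In L-540 it was 0 in place of 3 with the authors' values, no background correction and either export set, and 1 with median scaling and the methods' test. In SUP-HD1 it was 0 in place of 2 with median scaling and either export set, and 1 with the methods' test. In the average of the lines it was 0 in place of 1 with the authors' values and without background correction, 2 with any kept probe and 5 without a size limit. It stayed at 1 with median scaling and the first export set, but SRXN1 lost the call in both, and the gene called was MAFG with median scaling (0.43) and HMOX1 with the first export set (0.50). Leaving out single arrays gave 0 to 1 in KM-H2, 1 to 3 in L-540, 3 in L-428, 2 in SUP-HD1 and 1 in the average. The resistant against sensitive difference had 0 calls under every alternative run, and calls between control lines ranged from 24 to 33 around 30. The methods' test and the fit within a line were not run for the average. The cause of the other shifts was not tested.

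With the replicate block, the counts were 1 in KM-H2, 3 in L-428, 3 in L-540, 2 in SUP-HD1 and 1 in the average, as without it. With median scaling the calls over all probes were 1656 up and 216 down in KM-H2, against 1590 and 1168 as reported, and 403 and 159 in SUP-HD1, against 722 and 886. They were 303 and 355 in L-428, against 996 and 792, and 928 and 195 in L-540, against 1359 and 868. Over the average of the lines they were 1433 and 365, against 1037 and 608. In L-428 the HMOX1 difference was 0.47 with the authors' values, 0.50 without background correction, 0.76 with offset 50 and 1.13 as reported.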
